A study of Mus musculus with 7 samples.

Results

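Germline and meiosis genes were examined in C2C12 cells, an established line of mouse skeletal myoblasts, after knockdown of G9a or of GLP. The set was a list of 38 genes, chosen by symbol for known roles in germ cells, meiosis, transposon silencing or the MAGE family. Of these, 37 were measured by a probe set with 1 gene symbol, out of 22180 such genes on the arrays. The remaining gene, Sycp3, which encodes an axial protein of meiotic chromosomes, had only a probe set that is shared with Chpt1 and was not taken further. Each of the 7 samples was total RNA of transfected C2C12 cells, kept in growth medium containing 15% serum, and was hybridised to 1 single-colour Affymetrix whole transcript array. The groups were siG9a (3 arrays, siRNA against G9a), siGLP (2 arrays, siRNA against GLP) and Control (2 arrays, control siRNA). Per the labels, each dish of 100 mm received 0.2 umol of siRNA in every group. All groups thus carried a transfected siRNA, and the model is 1 cell line in growth medium. Nothing in the labels says whether the replicates came from different cultures. The p-values therefore reflect the spread among these 7 arrays, part or all of which may be technical, and precision is limited by their number.

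G9a, encoded by Ehmt2, and GLP, encoded by Ehmt1, form a pair of similar histone methyltransferases that place methyl groups on lysine 9 of histone H3, a mark of silent chromatin. Germline genes are normally silent in somatic cells such as myoblasts. In mouse embryonic stem cells many of them are kept silent by DNA methylation and by a Polycomb complex that contains the DNA-binding proteins MGA, MAX and E2F6 and that can also hold G9a and GLP. The comparisons ask whether transcripts of the germline program differ when either enzyme is depleted.

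The siRNA targets served as a check of the labels. Ehmt2 gave log2 signals of 6.31, 6.14 and 5.99 in siG9a arrays, 7.37 and 7.37 in siGLP arrays, and 7.56 and 7.46 in Control arrays. It fell in siG9a by a log2 difference of -1.37 with an SE of 0.10 (adjusted p = 0.0308 in limma after Benjamini-Hochberg), a call that was lost without any 1 array (adjusted p from 0.0787 to 0.426). Ehmt1 gave 6.74, 6.60 and 6.53 in siG9a, 5.73 and 6.13 in siGLP, and 6.71 and 6.73 in Control, and its difference of -0.79 in siGLP did not pass (limma adjusted p = 0.197). Myoblast markers were present: 8 of 8 lay above the median of all probe sets and 7 above the upper quartile, among them Des, Vim, Myod1 and Chrna1. The summed log2 signal of the myoblast markers was 70.3 to 70.9 in siG9a, 71.1 to 71.5 in siGLP and 72.2 to 72.5 in Control. Myod1, the myogenic transcription factor, stood at -0.68 in siG9a (limma adjusted p = 0.146) and -0.0025 in siGLP. The part of these levels in the results below was not tested. Of 5 measured leukocyte markers 1 lay above the median (Cd68), of 4 endothelial markers 0 and of 4 epithelial markers 1. Above the lower quartile of all probe sets lay 3 leukocyte, 3 endothelial and 3 epithelial markers. Of 8 measured markers of testicular Sertoli and Leydig cells 6 lay above the median. These were Sox9 and Gata4, which are also expressed outside the testis, and Rhox5, Star, Amh and Cyp11a1. The last 4 averaged 8.01, 5.23, 4.95 and 4.73 over the 7 arrays. Whether these signals show expression of the 4 genes in these cells was not tested, and the median alone does not decide it. The summed log2 signal of the 8 markers was 44.4 to 44.8 in siG9a, 43.9 to 44.6 in siGLP and 44.5 to 44.7 in Control.

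The germline genes were mostly at the dim end of the arrays in every group. The tables hold no detection calls, so the lower quartile of all probe sets stood in for background; it lay at 3.32 to 3.36 on the log2 scale in the 7 arrays. By their mean over the 7 arrays, 19 of the 37 genes lay below the lower quartile (51.4%, against 19.0% of all genes tested), 13 lay between it and the median (35.1%, against 24.4%) and 5 lay between the median and the upper quartile (13.5%, against 25.7%). None of the 37 lay above the upper quartile, where 30.8% of all genes were. Array by array, 15 genes were above the lower quartile on all 7 arrays, 15 on none and 7 on some. For genes at or below that line these arrays do not show a signal that differs from background. Lying above it does not by itself show expression, since 3 of 4 endothelial and 3 of 4 epithelial markers also did. In 13 of the 37 genes (35.1%) at least 3 arrays carried the same value to the last digit, which was true of 21.4% of all genes. Sycp2, for example, read 2.64 on 6 of 7 arrays to 2 decimals. In bulk RNA, a few cells with a transcript and a little transcript in every cell cannot be told apart.

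**Figure D1:**
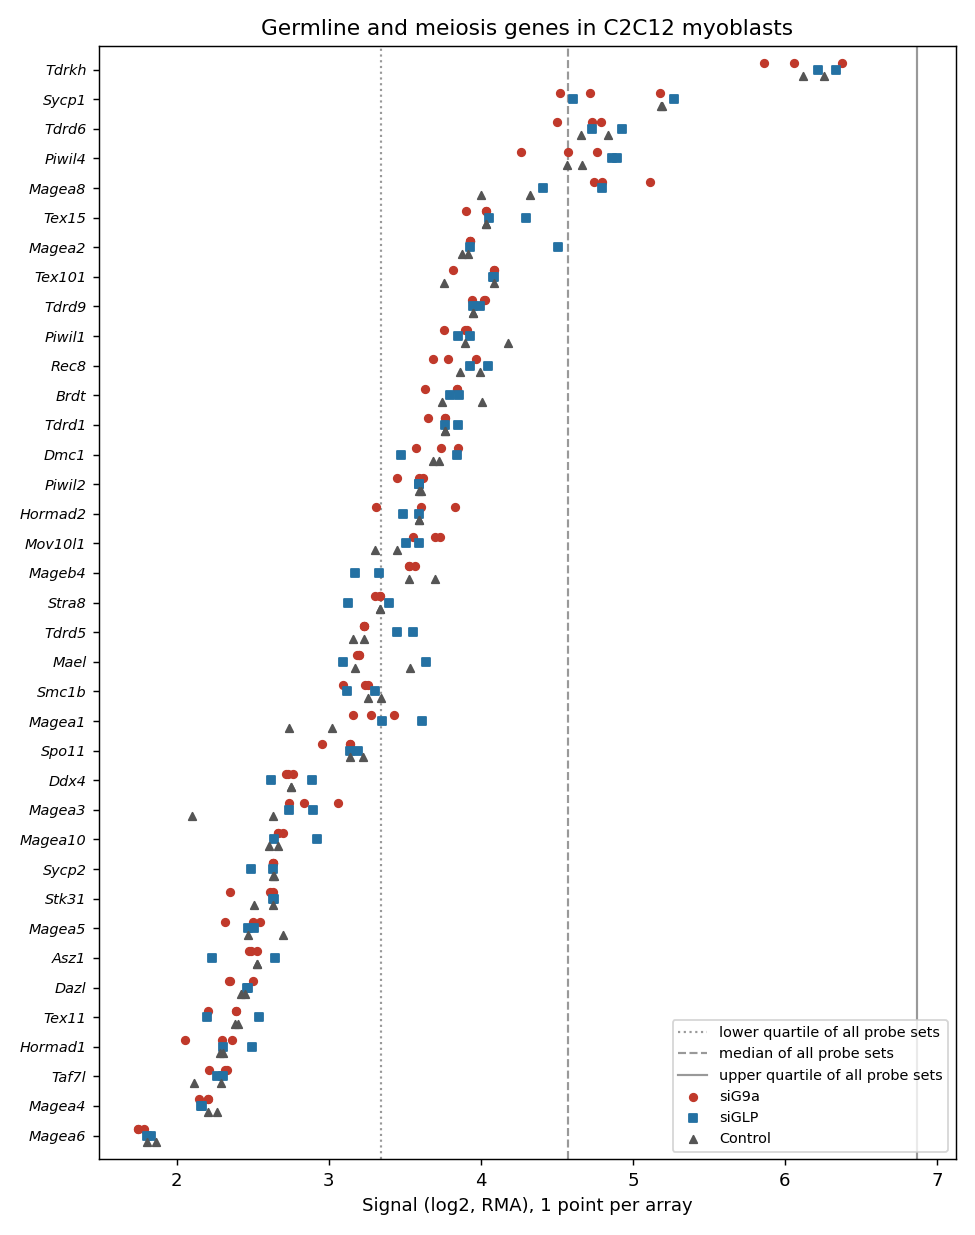
Log2 signal of each of the 37 measured germline genes (rows, ordered by mean) on every array, with siG9a as circles, siGLP as squares and Control as triangles, and vertical lines at the lower quartile, median and upper quartile of all probe sets. Tdrkh lies highest, all 37 genes average below the upper quartile and 19 of them below the lower quartile.

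No germline gene passed the threshold in any comparison, a Benjamini-Hochberg adjusted p under 0.05 over all 22180 genes in limma. The smallest adjusted p among the 37 was 0.205 in siG9a versus Control, 0.274 in siGLP versus Control and 0.169 in siGLP versus siG9a. The background was as sparse: 0.0271% of all genes passed in siG9a versus Control, 0.00451% in siGLP versus Control and 0.234% in siGLP versus siG9a. At an unadjusted p under 0.05, siG9a versus Control gave 4 higher germline genes (Magea8, Mov10l1, Magea1 and Magea3; 10.8%, against a background of 5.95%) and 0 lower ones (background 4.57%). siGLP versus Control gave 4 higher genes (Tdrd5, Magea1, Magea3 and Magea8; background 4.51%) and 1 lower gene (Mageb4; background 4.13%). siGLP versus siG9a gave 2 higher genes (Tdrd5 and Piwil4; background 5.87%) and 1 lower gene (Mageb4; background 6.57%). The comparisons share arrays, and each share differs from its background by few genes.

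Counts of genes whose arrays did not overlap between groups stood beside these backgrounds. In siG9a versus Control 5 germline genes were higher without overlap (13.5%, against 14% of all genes) and 2 were lower (Magea6 and Sycp1; background 11.7%). In siGLP versus Control 9 were higher (Dazl, Magea1, Magea2, Magea3, Magea8, Mov10l1, Piwil4, Tdrd5 and Tex15; background 17.4%) and 2 were lower (Magea4 and Mageb4; background 16.9%). In siGLP versus siG9a 4 were higher (Magea6, Piwil4, Tdrd5 and Tex15; background 12.1%) and 1 was lower (Mageb4; background 14.2%).

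The list as a whole was shifted little. Its median log2 difference was -0.036 in siG9a versus Control, against 0.0052 over all genes, with 11 genes above Control (background 51.7%) and 26 below (background 48%). In siGLP versus Control the median was 0.025, against 0.0015 over all genes, with 21 genes above (background 50.5%) and 16 below (background 49%). In siGLP versus siG9a it was 0.054, against -0.0037 over all genes, with 25 above (background 48.6%) and 12 below (background 51.1%). The median signal of the 37 genes on an array varied between replicate arrays by 0.051 (SD pooled over the groups, 4 degrees of freedom). That is the spread of a signal level and not of a median of differences, so it gives only a rough scale for the 3 medians. The differences from Control ranged from -0.39 to 0.72 in siG9a and from -0.36 to 0.60 in siGLP. The 95% intervals, taken gene by gene, concern differences of signal. Their upper limit exceeded 1, a doubling of signal, for 1 of 37 genes in siG9a (Magea8, 1.12) and for 0 in siGLP, where the highest limit was 0.94. For the 19 genes below the lower quartile these limits do not bound a change of transcript. Depletion was partial by signal, at 0.39 of Control for Ehmt2 in siG9a and 0.58 for Ehmt1 in siGLP. RMA signals near background are compressed, so a change at a very low level can show as a smaller difference than the true one.

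**Figure D2:**
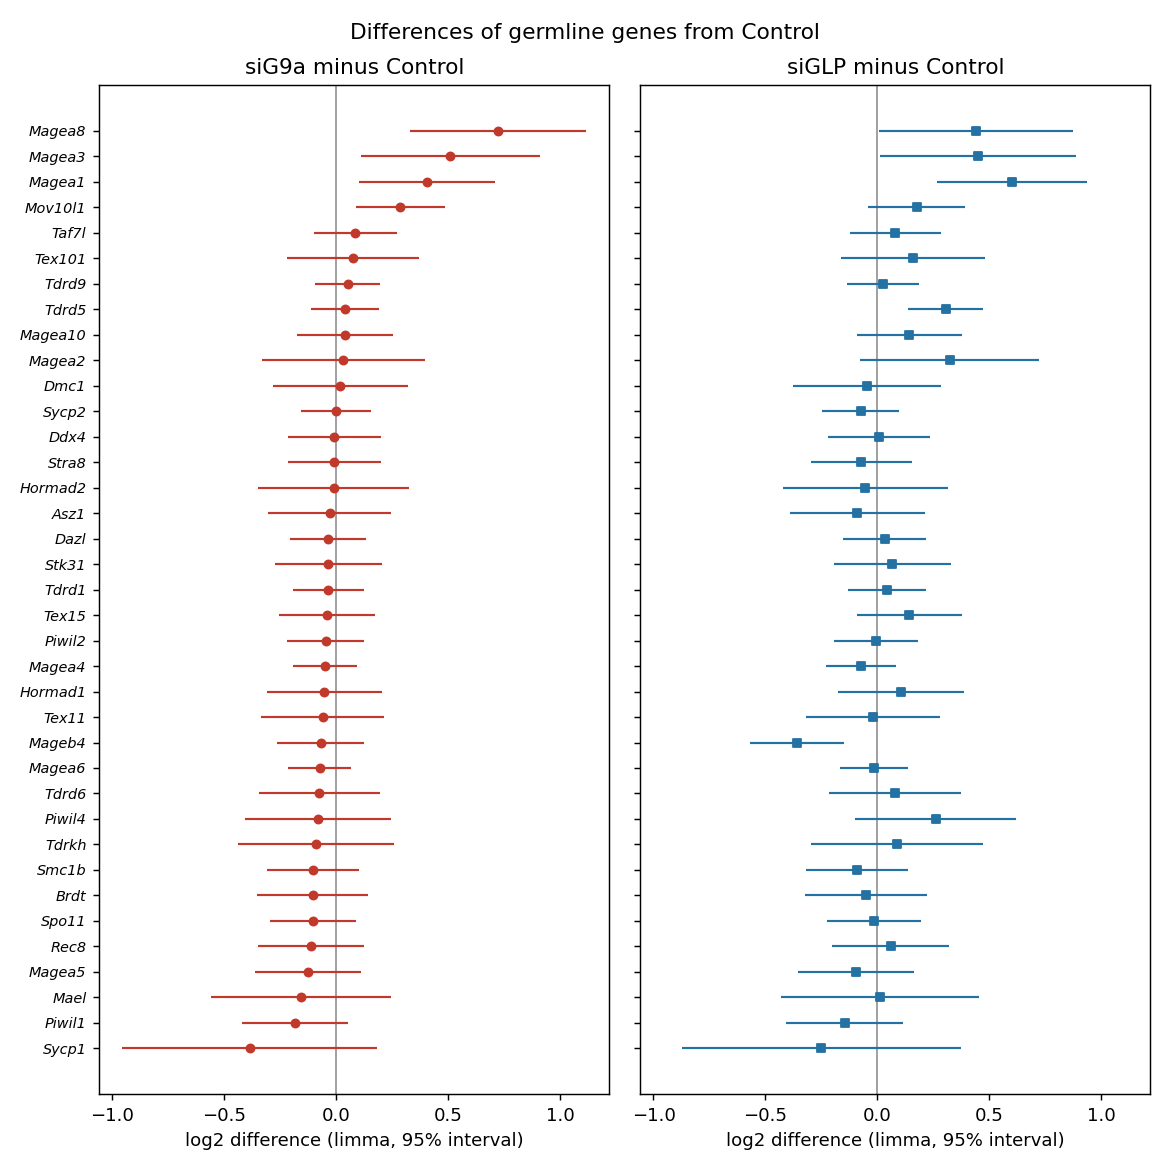
Log2 difference from Control for the 37 germline genes in siG9a (left) and siGLP (right), ordered by the siG9a value, with 95% intervals from limma. Most intervals cross 0, and Magea8, Magea3, Magea1 and Mov10l1 stand highest in siG9a.

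Among the 37 genes, 3 of the MAGE family gave the largest positive differences in both knockdowns, though none passed. MAGE proteins bind ubiquitin ligases, and many of their genes are normally confined to the testis and switched on in tumours. Magea8 gave 5.11, 4.80 and 4.74 in siG9a arrays, 4.80 and 4.41 in siGLP arrays, and 4.0 and 4.32 in Control arrays. Every knockdown array was above both Control arrays, and all 7 were above the lower quartile. Its mean was 4.88 ± 0.20 (SD, n = 3) in siG9a, 4.60 ± 0.27 (SD, n = 2) in siGLP and 4.16 ± 0.22 (SD, n = 2) in Control. That is 1.65-fold in siG9a (log2 difference 0.72, SE 0.17; limma adjusted p = 0.205) and 1.36-fold in siGLP (0.44, SE 0.18; limma adjusted p = 0.567). The siGLP value was 0.28 without Control 1 and 0.25 without siGLP 1.

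Magea1 gave 3.43, 3.16 and 3.27 in siG9a, 3.61 and 3.35 in siGLP, and 2.74 and 3.02 in Control. The knockdown arrays did not overlap the Control arrays, and they straddled the lower quartile while both Control arrays lay below it. The difference was 0.41 in siG9a (SE 0.13; limma adjusted p = 0.342) and 0.60 in siGLP (SE 0.14; limma adjusted p = 0.289), with 0.26 in siG9a without Control 1. Magea3 gave 2.84, 2.74 and 3.06 in siG9a, 2.90 and 2.74 in siGLP, and 2.10 and 2.64 in Control. All of these are below the lower quartile, and Control 2 came close to the lowest knockdown arrays. The difference of 0.51 in siG9a (limma adjusted p = 0.358) and 0.45 in siGLP (limma adjusted p = 0.564) leaned on Control 1, and without that array it was 0.24 and 0.18. The 3 genes share their Control arrays, so their differences are not independent of each other.

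The other MAGE genes gave smaller or opposite differences. Magea2 read 3.93 on all 3 siG9a arrays, 3.93 and 4.51 in siGLP, and 3.92 and 3.87 in Control, so the knockdown arrays lay above Control narrowly and a single siGLP array set the siGLP difference of 0.32 (limma adjusted p = 0.687), beside 0.03 in siG9a. Mageb4 gave 3.52, 3.57 and 3.52 in siG9a, 3.33 and 3.17 in siGLP, and 3.52 and 3.70 in Control. The siGLP arrays were the lowest, below the lower quartile, with a difference from Control of -0.36 (SE 0.089; limma adjusted p = 0.316) and a difference from siG9a of -0.29 (limma adjusted p = 0.227). Magea4, Magea5, Magea6 and Magea10 lay below the lower quartile on all 7 arrays, and their differences ranged from -0.13 for Magea5 in siG9a to 0.14 for Magea10 in siGLP.

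**Figure D3:**
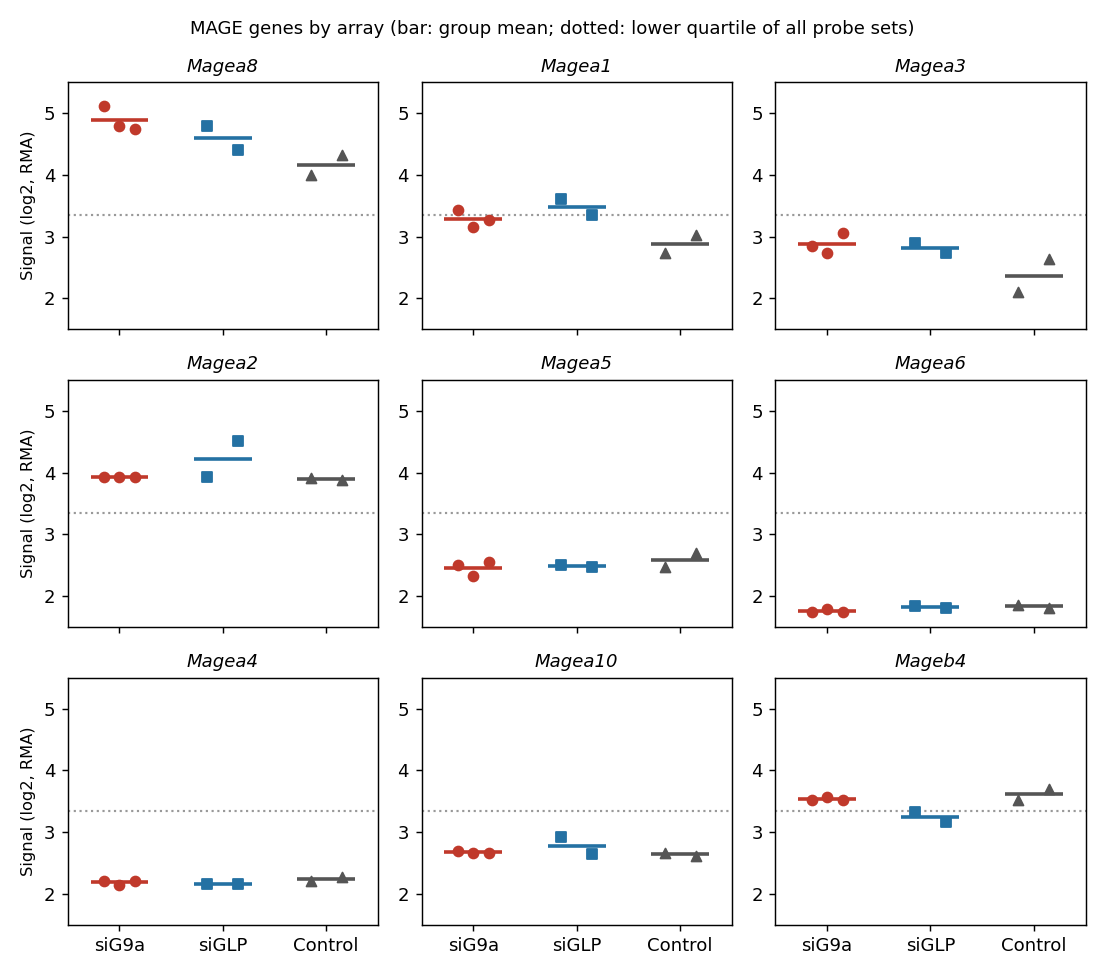
Log2 signal of the 9 MAGE genes on each array, with siG9a, siGLP and Control from left to right in each panel, bars at group means and a dotted line at the lower quartile of all probe sets. In Magea8, Magea1 and Magea3 every knockdown point lies above both Control points, and in Mageb4 the siGLP points are the lowest.

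Magea6, Magea3, Magea8, Magea2, Magea5 and Magea1 are 6 successive protein-coding genes on chromosome X, in this order in RefSeq, at places 887 to 892 among the protein-coding genes of that chromosome. They belong to 1 family, and whether a probe set for one also binds the transcript of another was not tested, since transcripts and probes were not compared. Their promoters were compared instead, taken as 250 bases before to 50 bases after the start in RefSeq (GRCm38.p6, 300 bases). Whether transcription begins at these annotated starts was not tested, so a stretch compared here may not be the promoter in use. After alignment, 264 bases (88.0% of 300) were identical between Magea2 and Magea8 and 258 (86.0%) between Magea1 and Magea3, while the next closest MAGE pair (Magea8 and Magea10) shared 198 (66.0%). The log2 differences of the most alike pair, Magea2 and Magea8, were 0.03 and 0.72 in siG9a and 0.32 and 0.44 in siGLP. Those of Magea1 and Magea3 were 0.41 and 0.51 in siG9a and 0.60 and 0.45 in siGLP. The promoters of Magea1 and Magea8, whose differences were both positive, were 58.0% identical. Apart from the 2 alike pairs, all MAGE pairs lay between 55.7% and 66.0%. Whether likeness of promoters goes with the differences was not tested. The promoters of Magea1 (chrX:155089741-155090040, minus strand) and Magea3 (chrX:154949520-154949819, minus strand) are given as an alike pair of which both genes are described above, with capitals at the 42 bases of each that have no identical partner in the other.
Magea1: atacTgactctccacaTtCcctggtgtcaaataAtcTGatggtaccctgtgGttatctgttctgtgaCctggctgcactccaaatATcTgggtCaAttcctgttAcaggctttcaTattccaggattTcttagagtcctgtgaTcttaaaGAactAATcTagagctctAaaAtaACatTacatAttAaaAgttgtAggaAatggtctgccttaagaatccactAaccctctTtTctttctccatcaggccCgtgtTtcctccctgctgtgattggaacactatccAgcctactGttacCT
Magea3: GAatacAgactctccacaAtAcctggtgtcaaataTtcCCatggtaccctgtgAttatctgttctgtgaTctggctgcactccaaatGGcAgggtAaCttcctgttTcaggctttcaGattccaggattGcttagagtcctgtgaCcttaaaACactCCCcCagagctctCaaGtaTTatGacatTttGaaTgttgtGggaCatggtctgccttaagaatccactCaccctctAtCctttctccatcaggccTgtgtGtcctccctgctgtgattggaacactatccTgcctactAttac

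The piRNA pathway protects germ cells from transposons by small RNAs bound to PIWI proteins, with tudor-domain proteins as scaffolds. Of its 12 genes on the list, all were measured, 4 lay below the lower quartile, 5 between it and the median and 3 above the median. Tdrkh, a tudor and KH-domain protein that holds PIWI proteins at mitochondria for trimming of piRNAs, was the germline gene with the highest signal. It gave 6.38, 6.06 and 5.86 in siG9a, 6.34 and 6.22 in siGLP, and 6.26 and 6.12 in Control. The groups overlapped fully, with a difference of -0.09 (95% interval -0.44 to 0.26) in siG9a and 0.09 (-0.30 to 0.47) in siGLP. Tdrd6, a scaffold of the chromatoid body of spermatids, also overlapped, at 4.50, 4.79 and 4.73 in siG9a, 4.93 and 4.73 in siGLP, and 4.66 and 4.84 in Control.

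Among the PIWI genes, Piwil4 (MIWI2, the nuclear PIWI protein of fetal germ cells) gave 4.57, 4.77 and 4.27 in siG9a, 4.86 and 4.89 in siGLP, and 4.67 and 4.56 in Control. The siGLP arrays were the highest, by 0.34 over siG9a (SE 0.14; limma adjusted p = 0.383), which became 0.21 without siG9a 3. Piwil1 (MIWI, of spermatids) gave 3.76, 3.91 and 3.90 in siG9a, 3.85 and 3.93 in siGLP, and 3.90 and 4.18 in Control, with a siG9a difference of -0.18 that shrank to -0.04 without Control 2. Piwil2 (MILI), which amplifies piRNAs, stayed between 3.45 and 3.62 on all 7 arrays.

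The helicase gene Mov10l1, whose product binds piRNA precursors, gave 3.73, 3.56 and 3.70 in siG9a, 3.51 and 3.60 in siGLP, and 3.45 and 3.30 in Control. Every knockdown array was above both Control arrays, though within 0.43 of the lowest. The difference was 0.29 in siG9a (SE 0.084; limma adjusted p = 0.304) and 0.18 in siGLP (SE 0.091; limma adjusted p = 0.685), the siGLP value being 0.10 without Control 2. Tdrd5, a tudor protein needed for transposon silencing and spermatid development, read 3.23 on all 3 siG9a arrays, 3.45 and 3.55 in siGLP, and 3.16 and 3.23 in Control. The 2 siGLP arrays were the only ones above the lower quartile, with a difference of 0.30 from Control (SE 0.070; limma adjusted p = 0.274) and 0.27 from siG9a (SE 0.064; limma adjusted p = 0.169). The identical siG9a values make that group's spread 0, so the SE rests on the other groups and on moderation. The tudor-domain genes Tdrd1, Tdrd9 and Stk31, the piRNA factor Mael and the mitochondrial piRNA factor Asz1 had differences from Control between -0.16 (Mael in siG9a) and 0.07 (Stk31 in siGLP).

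Genes of meiotic entry and meiotic chromosomes were the next group, with 11 of 12 measured, of which 6 lay below the lower quartile, 4 between it and the median and 1 above the median. That 1 was Sycp1, whose product forms the transverse filaments of the synaptonemal complex. It gave 5.18, 4.52 and 4.71 in siG9a, 5.27 and 4.61 in siGLP, and 5.19 and 5.19 in Control. The highest siG9a array was just below both Control arrays. The values fell into a high set of 4 arrays near 5.2 and a low set of 3 arrays between 4.52 and 4.71, and each knockdown had arrays in both. The siG9a difference of -0.39 (SE 0.24; limma adjusted p = 0.633) is smaller than the range within either knockdown, and it was -0.24 without siG9a 2. Tex15, needed for meiotic recombination and transposon silencing in mouse testis, gave 3.90, 4.04 and 4.03 in siG9a, 4.05 and 4.30 in siGLP, and 4.03 and 4.03 in Control, and its siGLP minus siG9a difference of 0.18 became 0.06 without siGLP 2.

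The genes that mark commitment to meiosis were dim in all groups. Stra8, the retinoic acid target that opens meiosis, read 3.31, 3.33 and 3.33 in siG9a, 3.13 and 3.40 in siGLP, and 3.33 and 3.33 in Control. Spo11, which makes the DNA breaks of meiosis, read 3.14, 2.95 and 3.14 in siG9a, 3.14 and 3.19 in siGLP, and 3.14 and 3.23 in Control, below the lower quartile throughout. Dmc1, the meiotic strand exchange protein, was above the lower quartile on all 7 arrays at 3.47 to 3.85, with differences of 0.02 in siG9a and -0.05 in siGLP. The meiotic cohesin genes Rec8 and Smc1b, the chromosome axis genes Hormad1, Hormad2 and Sycp2, and the crossover gene Tex11 lay between -0.11 and 0.10 in both knockdowns relative to Control, and the arrays of each overlapped between the knockdowns and Control.

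The germ cell factors gave the flattest profiles. Dazl, an RNA-binding protein of germ cells, read 2.34, 2.35 and 2.5 in siG9a, 2.47 and 2.46 in siGLP, and 2.45 and 2.42 in Control, so the siGLP arrays stood above Control by 0.033 on average. Ddx4, the germ cell helicase also called Vasa, read 2.72, 2.77 and 2.73 in siG9a, 2.89 and 2.62 in siGLP, and 2.75 and 2.75 in Control. Both lay below the lower quartile on all 7 arrays, with 95% intervals of -0.21 to 0.13 for Dazl and -0.22 to 0.20 for Ddx4 in siG9a. Taf7l, a germ cell relative of a general transcription factor subunit, also lay below it. Tex101, a surface protein of germ cells, and Brdt, the testis member of the BET bromodomain family, were above the lower quartile on all 7 arrays. Their differences were 0.07 and -0.11 in siG9a and 0.16 and -0.05 in siGLP.

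Promoter sequences were compared because factors that silence germline genes are known to read short motifs. RefSeq promoters (GRCm38.p6) were at hand for 33 of the 38 genes, 38 promoters in all. The motif CACGTG, an E-box that MGA and MAX can bind and that reads the same on both strands, was in 15 of the 38 (39.5%), against 7.15% of all 32851 promoters of the same length. TCCCGC on either strand, a core of E2F sites, was in 10 (26.3%), against 20% of all promoters, and both motifs were in 6 (15.8%), against 1.99%. Hormad1, Stk31 and Tdrd1 had overlapping promoters, so the same match could count more than once. By gene, 12 of 33 held CACGTG and 9 held TCCCGC, with Sycp3 in both counts. The germline promoters also held more CG dinucleotides, with a median of 17.5 against 7 in all promoters, and CACGTG itself contains one. Matches to the 2 motifs can overlap by at most 1 base. Promoters of Mov10l1 (chr15:88982744-88983043, plus strand) and Sycp1 (chr3:102936051-102936350, minus strand) are given as named genes that hold an E-box, with matches to CACGTG and TCCCGC (either strand) in capitals.
Mov10l1: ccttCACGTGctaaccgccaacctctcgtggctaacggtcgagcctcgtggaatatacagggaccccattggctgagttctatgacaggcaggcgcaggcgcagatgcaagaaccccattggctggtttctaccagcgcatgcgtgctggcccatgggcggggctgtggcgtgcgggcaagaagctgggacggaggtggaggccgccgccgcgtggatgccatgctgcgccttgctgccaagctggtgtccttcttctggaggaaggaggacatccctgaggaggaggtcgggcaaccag
Sycp1: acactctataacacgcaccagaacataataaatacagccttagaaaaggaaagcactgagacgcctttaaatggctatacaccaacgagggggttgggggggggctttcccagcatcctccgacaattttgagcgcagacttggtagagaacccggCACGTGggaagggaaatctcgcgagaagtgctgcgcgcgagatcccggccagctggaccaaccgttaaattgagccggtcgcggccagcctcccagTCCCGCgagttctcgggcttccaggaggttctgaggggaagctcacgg

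Differences of genes with and without the E-box are given as a description, since only 6 of the 11 measured genes with CACGTG in a promoter and 9 of the 21 without it lay above the lower quartile. The genes with it had a median difference of -0.036 in siG9a (3 of 11 above Control) and 0.025 in siGLP (8 of 11 above). Those without it had medians of -0.012 (8 of 21 above) and 0.033 (11 of 21 above). The 21 include all 9 MAGE genes, of which 5 stood above Control in siG9a and 5 in siGLP, so the 2 sets also differ in gene family. Neither motif occurred in the stretches taken as promoters of the 9 MAGE genes, which held 0 to 11 CG dinucleotides (median 2). These stretches rest on annotated starts that were not tested, so motifs at other starts of these genes would be missed. A match describes these letters and does not show binding.

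Further germline genes outside the list were also mostly below the upper quartile. Of 30 measured genes of meiotic chromosomes and recombination, 20 lay above the lower quartile and 6 above the upper quartile, namely Trip13, Psmc3ip, Mnd1, Ythdc2, Sun1 and Sgo2a. None passed in any comparison. At an unadjusted p under 0.05 there were 0 higher (background 5.95%) and 3 lower genes (background 4.57%) in siG9a. In siGLP there were 0 in either direction (background 4.51% higher and 4.13% lower). The lower ones were Trip13, a remodeller of HORMA proteins that also acts in mitosis (-0.50; limma adjusted p = 0.178), Psmc3ip (-0.20) and Hsf2bp (-0.24), and Syce1, a synaptonemal protein, was next at -0.23. Of 37 measured germ cell regulators 1 lay above the upper quartile and 0 passed. At an unadjusted p, 1 was higher (background 5.95%) and 2 lower (background 4.57%) in siG9a. In siGLP 2 were higher (background 4.51%) and 1 lower (background 4.13%), so these counts of 37 genes stood close to background. The smallest p-values belonged to Zbtb16 (-0.34 in siGLP), the oocyte factor Figla (0.34 in siG9a), Tex19.2 (0.44 in siGLP) and the piRNA factor Gtsf1 (0.30 in siGLP), with limma adjusted p from 0.242 to 0.434. Of 16 oocyte genes 0 passed, and 1 was higher in siGLP at an unadjusted p (background 4.51%). It was Nlrp5 of the oocyte cytoplasm (0.40, limma adjusted p = 0.406). Nlrp14, Gdf9 and Zp1 followed, at 0.22, -0.05 and -0.17 in siGLP.

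Of 28 measured spermatid and sperm genes 10 lay above the median and 2 above the upper quartile. In siG9a 1 was higher (background 5.95%) and 2 lower (background 4.57%) at an unadjusted p under 0.05. In siGLP 4 of 28 were higher (background 4.51%) and 0 lower (background 4.13%). Calr3, a testis calreticulin that serves as a chaperone in spermatids, gave 5.32, 5.04 and 5.32 in siG9a, 6.71 and 6.34 in siGLP, and 5.04 and 5.19 in Control. Both siGLP arrays stood clear of all others, by 1.41 over Control (limma adjusted p = 0.133) and by 1.30 over siG9a, where Calr3 passed (limma adjusted p = 0.0356). No gene passed in siGLP versus siG9a without any 1 array, with only these groups in the fit or with the replicate number as a block, so this call was lost in each. The sperm protamine Prm1 stood at 0.26 in siG9a and 0.35 in siGLP, Prm3 at -0.20 and 0.29, and the sperm tail gene Akap3 at -0.38 and -0.08.

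Genes that keep germline genes silent, and somatic relatives of the listed genes, mostly lay above the median. Of 29 measured repressor genes 28 lay above the median, and Dnmt3l, a DNA methylation cofactor of germ cells, was the exception. In siG9a 1 repressor gene passed (Ehmt2, the siRNA target), and 0 were higher and 5 of 29 lower at an unadjusted p under 0.05 (background 4.57% lower). In siGLP 0 passed, and 0 were higher and 3 of 29 lower (background 4.13% lower). Whatever the p, 22 of the 29 stood below Control in siG9a (background 48%) and 22 in siGLP (background 49%). The median of the repressors was -0.09 in siG9a and -0.04 in siGLP, a list that contains both siRNA targets. The DNA methyltransferase gene Dnmt3a stood at -0.16 in siG9a and -0.37 in siGLP (limma adjusted p = 0.42), and Uhrf1, which guides maintenance methylation, at -0.26 and -0.06. Of 21 measured somatic relatives 19 lay above the median and 0 passed. Tdrd7, a tudor protein of somatic and germ cells, gave 7.71, 7.58 and 7.69 in siG9a, 7.56 and 7.37 in siGLP, and 7.08 and 7.15 in Control. The knockdown arrays were all above Control, by 0.55 in siG9a (limma adjusted p = 0.108) and 0.35 in siGLP (limma adjusted p = 0.341). Brd3, a somatic BET gene, stood at -0.38 in siG9a and -0.02 in siGLP, Ago3 at 0.25 and 0.33, and Ago2 at -0.27 and -0.02.

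**Figure D4:**
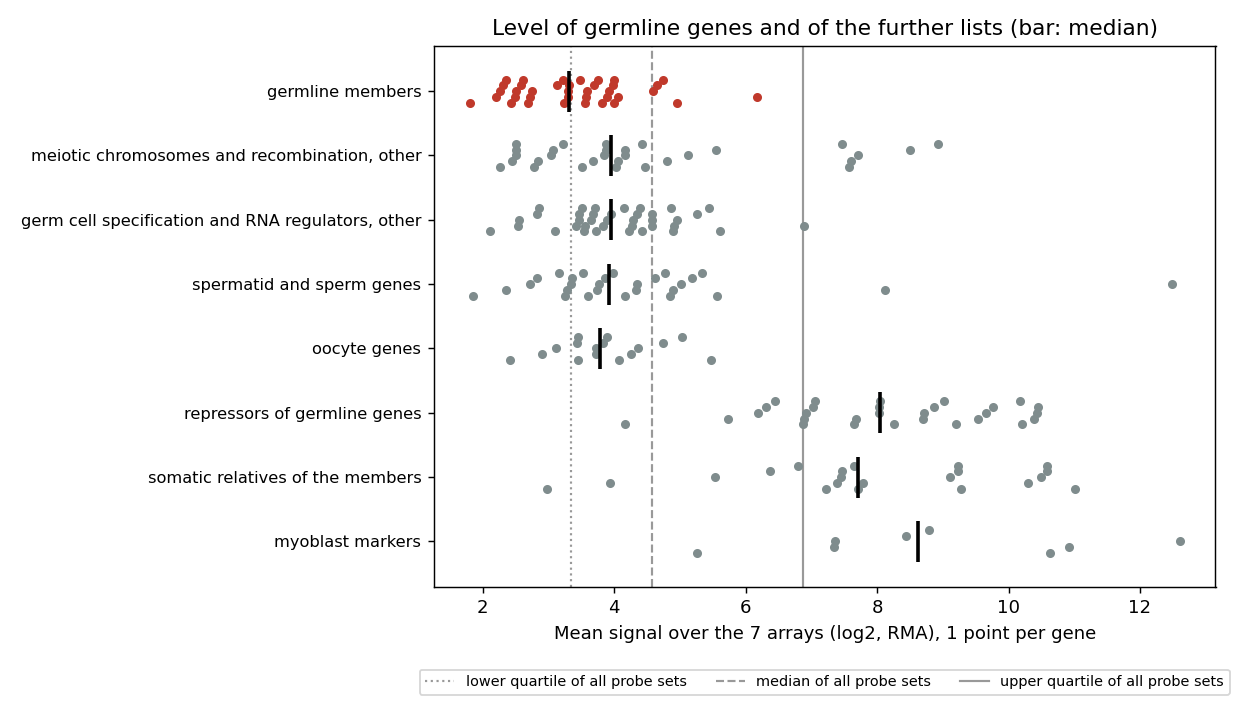
Mean log2 signal over the 7 arrays for each gene (points) of the germline list, of 6 further lists and of the myoblast markers, with bars at list medians and vertical lines at the quartiles and median of all probe sets. The germline list has a median of 3.31, against 8.04 for repressors of germline genes and 7.71 for somatic relatives.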

How the data were processed

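Each of 7 C2C12 samples was measured on 1 array, with 100 ng of total RNA as input to biotin labelling, per the labels' protocols. The values deposited by the authors are on a log2 scale, as their range shows. RMA and Partek are the tools listed, with no version, in the submitters' processing notes. The scan date and the authors' own test were not given in the sources used here.

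Of 33649 probe sets 23521 had 1 gene symbol, 1814 several and 8314 none. Symbols were updated through RefSeq gene numbers (GRCm38.p6; 23328 matched), and the probe set with the highest mean was kept, leaving 22180 genes. Limma 3.58.1 in R 4.3.3 fitted 1 mean per group over all 7 arrays (lmFit and eBayes, 4 residual degrees of freedom, 6.89 with moderation, two-sided, Benjamini-Hochberg over all genes, no filter). A difference is the first-named group minus the second on the log2 scale, and a fold is 2 raised to it. The code of the fit was also run on simulated data with normal noise, its spread shuffled over genes. Such data hold no repeated values, so that run says nothing about genes that have them near background.

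The members and lists were chosen with earlier results of these data known. Named genes were members above the median of all probe sets, the 6, 6 and 4 with the smallest p in the 3 comparisons, and up to 4 of each further list by smallest p over the 2 comparisons with Control. Magea2, Stra8, Spo11, Dazl, Ddx4, Odf1, Rhox5, Cd68, Myod1 and Ptprc were given by array or by value after their values were seen. Alternatives were 2 normalizations, 2 filters, 2 variance models, a fit of 2 groups, averaged probe sets, a replicate block and leaving out each array.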

Additional observations from a re-analysis of the deposited data

How the results depend on the processing

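No germline gene passed under any of the 16 alternatives. Their smallest limma adjusted p lay between 0.121 and 0.773 in siG9a versus Control, 0.22 and 0.869 in siGLP versus Control, and 0.163 and 0.530 in siGLP versus siG9a; the filters, set at the lower quartile and the median of mean level over the 22180 genes (higher lines than those over all probe sets), kept 14 and 1 of the 37. The number of germline genes above the lower quartile was 18 under every alternative that could move it. The list's median ranged over single left-out arrays from -0.05 to -0.00 in siG9a, 0.01 to 0.03 in siGLP and 0.04 to 0.07 in siGLP versus siG9a. For named genes and siRNA targets 22 differences were examined, and none of the 156 alternative values that differed from the original estimate had the other sign. The remaining alternatives leave the estimate as it is. Apart from the siRNA targets, these differences were chosen for their small p in the same data. A change of sign was thus unlikely beforehand, and its absence says little about stability.

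Counts over all genes were less stable. The 6 (siG9a), 1 (siGLP) and 52 (siGLP versus siG9a) genes that passed became 148, 21 and 350 when genes under the median over genes were not tested (11090 kept), and 100, 23 and 304 with trended, robust moderation. They were 0, 0 and 3 without moderation, and 0 in all 3 with only the 2 groups compared in the fit. Leaving out genes below the lower quartile over genes (16635 kept) gave 24 in siG9a and 147 in siGLP versus siG9a, and quantile normalization gave 16 in siG9a. Without single arrays the counts ranged from 0 to 0 in siG9a, 0 to 1 in siGLP and 0 to 0 in siGLP versus siG9a. The Ehmt2 call in siG9a was also lost without moderation (adjusted p = 0.172), with only the 2 groups in the fit (0.130) and with the replicate block (0.163). The causes were not tested, apart from fewer genes or arrays.

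The labels number the replicates but do not say that a number marks a shared batch. Deviations of same-numbered arrays from their group means correlated at 0.0047 to 0.172 over 6 pairs of arrays. Differently numbered pairs ranged from -0.172 to 0.149. In a group of 2 arrays the deviations mirror each other, so the pairs are not independent and do not settle whether a batch was shared. With the replicate number as a block the counts of genes passing were 0, 0 and 0, and the germline genes' smallest adjusted p was 0.377, 0.376 and 0.323. Signal near background limits what can be seen for the 19 germline genes below the lower quartile. For the others, lying above that line does not by itself show expression.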

Other observations

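Odf1, a gene of the outer dense fibres of sperm tails, had one of the brightest probe sets of the arrays. Its log2 signal was 12.50, 12.50 and 12.44 in siG9a, 12.49 and 12.47 in siGLP, and 12.49 and 12.50 in Control, at the 99.9th percentile of probe sets. The values spanned 0.0649 over the 7 arrays. Which transcript this probe set reports in myoblasts was not tested.

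Rhox5, an X-linked homeobox gene of the testis, lay above the upper quartile in every group, at 8.07, 8.06 and 8.07 in siG9a, 7.93 and 8.09 in siGLP, and 7.82 and 8.07 in Control. Its difference was 0.13 in siG9a (limma adjusted p = 0.683) and 0.07 in siGLP (limma adjusted p = 0.902).

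Cd68, a lysosomal protein used as a macrophage marker, gave 7.82, 7.67 and 7.79 in siG9a, 7.83 and 7.54 in siGLP, and 7.06 and 7.22 in Control. It did not pass (difference 0.62 in siG9a, limma adjusted p = 0.133, and 0.54 in siGLP, limma adjusted p = 0.262). Ptprc, the marker of all leukocytes, averaged below the lower quartile, at 2.79 in siG9a, 2.89 in siGLP and 2.80 in Control.

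The shared probe set of Sycp3 and Chpt1 gave 4.91, 5.12 and 5.02 in siG9a, 4.83 and 4.89 in siGLP, and 5.07 and 4.92 in Control. The siGLP arrays were the lowest, just below the others, and the signal cannot be assigned to either gene.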
